A study of Mus musculus with 17 samples.

Results

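The genes described here are 10 negative-feedback inhibitors of the RAS-ERK signalling pathway: the MAPK phosphatases Dusp4, Dusp5 and Dusp6, the Sprouty genes Spry1, Spry2 and Spry4, the Sprouty-related genes Spred1, Spred2 and Spred3, and the transmembrane inhibitor Il17rd, also known as Sef. They were chosen by name, with earlier results of these data known, from the 24013 genes of a count table of sorted mouse germ cells. All 10 were present and passed the filter on low counts. When a growth factor engages its receptor tyrosine kinase, RAS, RAF, MEK and ERK are activated in turn, and ERK, partly through ETS-family transcription factors, raises transcription of several genes that restrain the same cascade. Dual-specificity phosphatases remove the activating phosphates from ERK, Sprouty and Spred proteins act upstream around RAS and RAF, and Il17rd acts at the membrane on receptor and MEK-ERK signalling. In the testis, GDNF signals through GFRA1 and the RET kinase and maintains spermatogonial stem cells, whereas the receptor KIT marks differentiating spermatogonia.

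Bulk RNA sequencing covered 17 libraries of testis cells from Tert-Tomato/+ mice of a mixed B6/J x B6/N background, in 4 sorted groups. The P6gonocyte group (n = 4) was taken from neonates at day 6 and was positive for TERT and for OCT4-GFP, although the genotype label names Tert-Tomato/+ alone. The other groups came from adults and were all high for TERT: KITpos (n = 5) was sorted as Kit-positive, GFRA1pos (n = 4) as GFRA1-positive and Kit-negative, and GFRA1neg (n = 4) as negative for both. The study asked how GFRA1-positive and GFRA1-negative undifferentiated spermatogonia differ. The labels do not say which libraries came from separate animals, so p-values measure the spread between these libraries, which may be technical.

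Library totals were 6479216 to 8468203 counts in P6gonocyte, 5178352 to 8300165 in KITpos, 10918223 to 11567191 in GFRA1pos and 9965437 to 12641907 in GFRA1neg. Levels are given in CPM on TMM-scaled library sizes, and differences as log2 fold changes ± SE from edgeR over 15451 genes, called at an adjusted p under 0.05. The sort genes followed the labels: Gfra1 averaged 145, 4.71, 390 and 22.8 CPM and Kit 188, 353, 17.6 and 27.6 CPM in P6gonocyte, KITpos, GFRA1pos and GFRA1neg. Tert averaged 7.21, 7.54, 7.25 and 11.3 CPM in the same groups. Pou5f1, which encodes OCT4, stood at 5.53 CPM in P6gonocyte replicate 2, against 23.1, 26.3 and 24.1 CPM in replicates 1, 3 and 4. In bulk RNA, fewer cells that express a gene and less of its RNA per cell cannot be told apart.

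GFRA1pos had the highest mean of the 4 groups for each of the 10 genes, and P6gonocyte had the second highest. For Spry2 that second place was a near tie, at 4.563 CPM in P6gonocyte and 4.555 CPM in KITpos. KITpos had the lowest mean for 8 of the 10 genes, and GFRA1neg for Spry2 and Spred1. Dusp6, Spry4 and Spred2 differed in all 6 pairwise comparisons of the groups, so each neighbouring pair in their order was separated. At the other end, Spred3 passed the test in 1 comparison. The plot of levels by library shows this order.

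**Figure D1:**
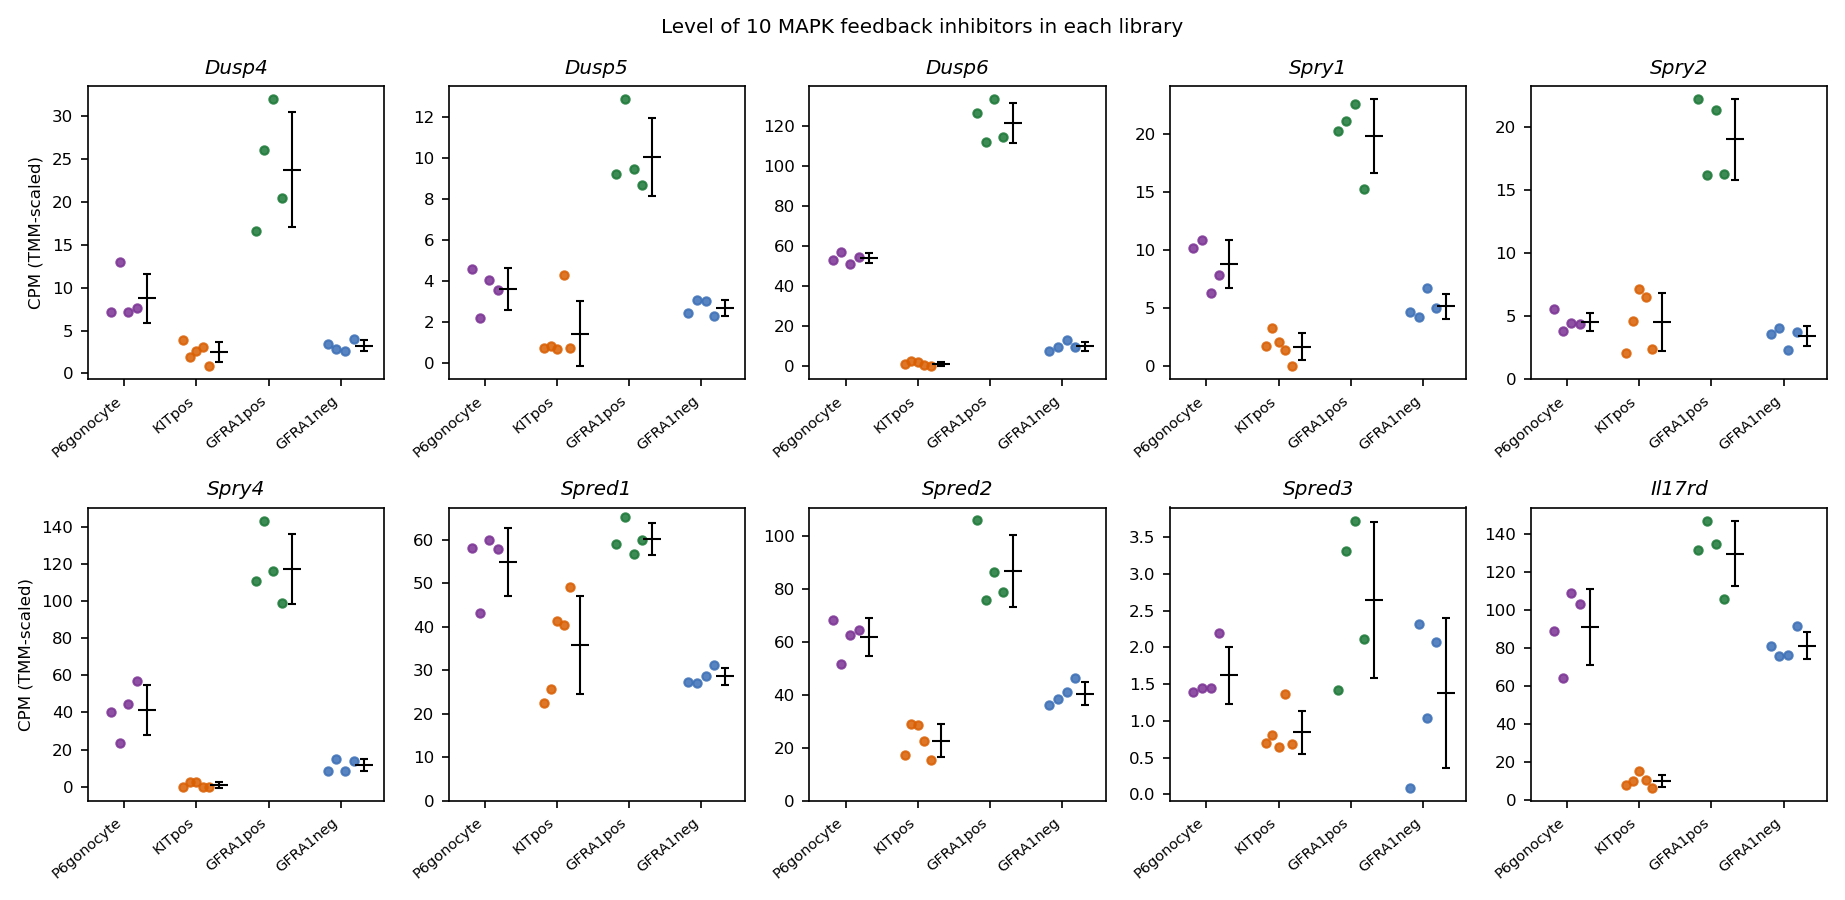
CPM of each of the 10 genes in every library (points) by group, with the group mean and SD (bar beside the points); each panel has its own linear axis. GFRA1pos points lie highest for Dusp6 (112 to 133 CPM) and Spry4 (98.7 to 143 CPM), while KITpos points lie at or near 0 for both.

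GFRA1pos against GFRA1neg asks what sets apart the adult Kit-negative cells that bear the GDNF co-receptor. Of the 10 feedback inhibitors 9 rose and 0 fell, against 7.3% of all tested genes called higher and 6.84% called lower. Their median log2 fold change was 1.92, against -0.04 over all tested genes. The rises ran from 12.4-fold for Dusp6 to 1.60-fold for Il17rd. Spred3 did not pass (0.92 ± 0.57, adjusted p = 0.34, 95% interval -0.29 to 2.12). Of 8 undifferentiated spermatogonia genes 4 were higher and 1 lower. Their sums were 1906 to 2365 CPM in GFRA1pos and 1206 to 1864 CPM in GFRA1neg. This list holds the sort gene Gfra1 (means of 390 and 22.8 CPM) and Etv5 (423 and 33.3 CPM). The higher sum therefore follows in part from the sort. Zbtb16, also listed, was not called and averaged 291 CPM in GFRA1pos and 404 CPM in GFRA1neg. Among markers of other cells, 2 of 5 tested endothelial genes and 1 of 3 macrophage and leukocyte genes were also higher, while 2 of 6 Sertoli cell genes were lower, with sums of 12.4 to 13.6 CPM in GFRA1pos and 20.5 to 30.01 CPM in GFRA1neg. Summed endothelial markers ranged from 26.1 to 31.5 CPM in GFRA1pos and from 16.95 to 22.4 CPM in GFRA1neg, with Emcn at 0 in every GFRA1pos library. Summed macrophage and leukocyte markers ranged from 17.1 to 20.4 CPM in GFRA1pos and from 12.4 to 14.7 CPM in GFRA1neg, where Ptprc was at 0 in all 4 libraries. Sums of spermatid and spermatocyte genes were larger and overlapped between the groups. Spermatid genes summed to 55.5 to 1485 CPM in GFRA1pos and 281 to 1319 CPM in GFRA1neg. Spermatocyte genes summed to 50.8 to 180 CPM in GFRA1pos and 107 to 410 CPM in GFRA1neg. The part of these markers in the result was not tested.

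KITpos against GFRA1neg follows the step to differentiating spermatogonia. Of the 10 genes 5 fell (Dusp6, Spry1, Spry4, Spred2 and Il17rd) and 0 rose, against 23.0% of all tested genes called lower and 22.1% called higher. The median was -0.89, beside 0.03 over all tested genes. The falls were 8.95-fold for Spry4, 8.11-fold for Il17rd, 7.97-fold for Dusp6, 2.95-fold for Spry1 and 1.78-fold for Spred2. Low KITpos counts make the folds of Spry4, Dusp6 and Spry1 uncertain in size. Of the marker genes, 7 of 8 for undifferentiated spermatogonia fell and 5 of 6 for differentiating spermatogonia rose. Their summed levels were 223 to 461 and 756 to 1080 CPM in KITpos, against 1206 to 1864 and 170 to 219 CPM in GFRA1neg. These lists include the sort genes Gfra1 and Kit, so the counts and sums follow in part from the sort. Kit alone averaged 353 CPM in KITpos and 27.6 CPM in GFRA1neg. Leydig cell genes were higher in 5 of 6 cases, with summed levels of 24.0 to 127 CPM in KITpos and 9.77 to 31.2 CPM in GFRA1neg, and none of the 6 was at 0 throughout either group. Summed levels of 3 other lists lay lower in KITpos without overlap. They were 11.5 to 23.4 CPM in KITpos and 31.2 to 36.0 CPM in GFRA1neg for peritubular myoid and fibroblast genes (1 of 7 called lower), and 10.1 to 15.2 CPM in KITpos and 16.95 to 22.4 CPM in GFRA1neg for endothelial genes (2 of 5 lower and 1 higher). Macrophage and leukocyte genes summed to 4.50 to 10.1 CPM in KITpos and 12.4 to 14.7 CPM in GFRA1neg (1 of 3 lower). Sums of spermatid and spermatocyte genes overlapped between the groups. Spermatid genes summed to 266 to 1029 CPM in KITpos and 281 to 1319 CPM in GFRA1neg. Spermatocyte genes summed to 93.8 to 231 CPM in KITpos and 107 to 410 CPM in GFRA1neg. The part of these markers in the result was not tested.

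P6gonocyte against GFRA1pos sets the neonatal cells beside the adult GFRA1-positive cells. Here 8 of the 10 genes fell and 0 rose, against 21.9% of all tested genes called lower and 17.3% called higher. The median was -1.17, beside -0.05 over all tested genes. Spred1 and Spred3 did not pass. The count was 5 of 10 without P6gonocyte replicate 2, P6gonocyte replicate 4, GFRA1pos replicate 1 or GFRA1pos replicate 3, each left out in turn, and the calls lost were among Dusp5, Spry1, Spred2 and Il17rd. Sertoli cell genes were higher in 4 of 6 cases, with sums of 40.6 to 142 CPM in P6gonocyte and 12.4 to 13.6 CPM in GFRA1pos. Peritubular myoid and fibroblast genes were higher in 3 of 7 cases, with sums of 40.3 to 50.1 CPM in P6gonocyte and 23.3 to 34.0 CPM in GFRA1pos. All 6 spermatid genes were lower, with sums of 1.66 to 3.33 CPM in P6gonocyte, where Prm1 was at 0 in every library, and 55.5 to 1485 CPM in GFRA1pos. Undifferentiated spermatogonia genes were lower in 4 of 8 cases and differentiating spermatogonia genes higher in 5 of 6. Sums of the former were 920 to 1294 CPM in P6gonocyte and 1906 to 2365 CPM in GFRA1pos. Sums of the latter were 409 to 580 CPM in P6gonocyte and 151 to 177 CPM in GFRA1pos. Gfra1 and Kit, on which GFRA1pos was sorted, stand on these lists, so both differences follow in part from the sort. Sums were also lower without overlap for spermatocyte genes (32.7 to 38.3 CPM in P6gonocyte and 50.8 to 180 CPM in GFRA1pos), macrophage and leukocyte genes (8.80 to 12.4 CPM in P6gonocyte and 17.1 to 20.4 CPM in GFRA1pos) and endothelial genes (17.6 to 25.1 CPM in P6gonocyte and 26.1 to 31.5 CPM in GFRA1pos). Summed red blood cell genes lay higher, at 4.17 to 20.8 CPM in P6gonocyte and 0.781 to 1.51 CPM in GFRA1pos. Age, sort and these markers cannot be told apart as sources of the difference.

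**Figure D2:**
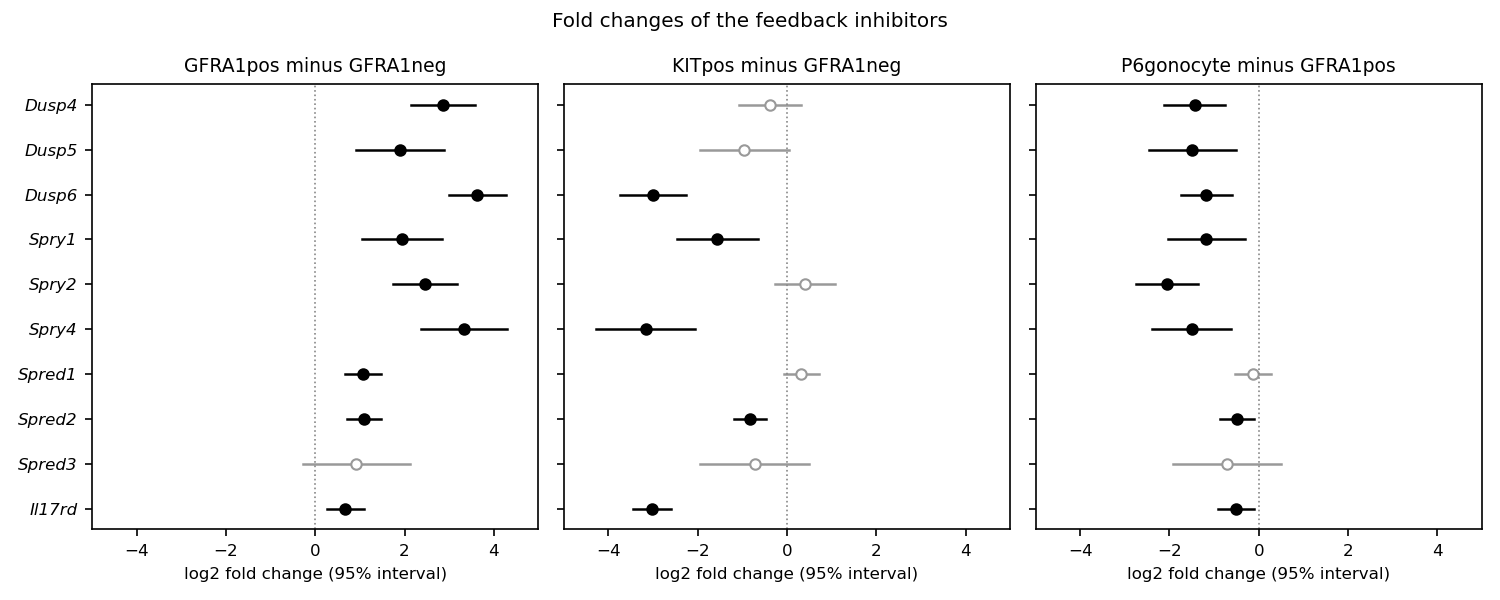
Log2 fold change (point) and 95% interval (line) of each gene in the 3 comparisons; black filled points passed the edgeR test and grey open points did not. GFRA1pos minus GFRA1neg lies to the right of 0 for all 10 genes (9 called), and P6gonocyte minus GFRA1pos lies to the left for all 10 (8 called). The panels share the GFRA1neg or GFRA1pos libraries.

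Among the phosphatases, Dusp6 encodes the cytoplasmic ERK-specific phosphatase MKP-3, and Dusp4 and Dusp5 encode nuclear phosphatases. Dusp6 stood at 53.2, 57.0, 50.9 and 54.4 CPM in P6gonocyte and at 0.840, 2.44, 1.82, 0.512 and 0 CPM in KITpos. Its levels were 126, 112, 133 and 114 CPM in GFRA1pos and 7.43, 9.52, 13.1 and 9.28 CPM in GFRA1neg. The 4 groups did not overlap at any point, and the KITpos values rest on 6, 21, 14, 3 and 0 counts. The log2 fold change was 3.63 ± 0.30 in GFRA1pos over GFRA1neg (adjusted p = 2e-07), -2.99 ± 0.35 in KITpos over GFRA1neg (adjusted p = 1.4e-06) and -1.17 ± 0.27 in P6gonocyte over GFRA1pos (adjusted p = 0.0024). A floor of 3 counts corresponded to 0.348 to 0.520 CPM in the KITpos libraries, so the level in KITpos replicate 5 lay under 0.520 CPM.

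Dusp4 stood at 7.22, 13.0, 7.14 and 7.70 CPM in P6gonocyte and at 3.92, 1.97, 2.59, 3.07 and 0.866 CPM in KITpos. It reached 16.6, 26.1, 32.0 and 20.5 CPM in GFRA1pos, against 3.39, 2.88, 2.66 and 4.05 CPM in GFRA1neg. KITpos and GFRA1neg overlapped (-0.38 ± 0.33, adjusted p = 0.39), while GFRA1pos rose over GFRA1neg by 2.87 ± 0.34 (adjusted p = 1.4e-05). P6gonocyte lay between GFRA1pos and GFRA1neg, with -1.44 ± 0.32 relative to GFRA1pos (adjusted p = 0.0019).

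Dusp5 was the least expressed of these phosphatases per kilobase of exon in 3 groups, with means of 1.45, 0.575, 4.07 and 1.09 CPM per kilobase in P6gonocyte, KITpos, GFRA1pos and GFRA1neg. In KITpos it stood at 0.700, 0.812, 0.648, 4.26 and 0.693 CPM, so that replicate 4 lay above the 2.27 to 3.04 CPM of GFRA1neg and the other 4 libraries below it. The difference of KITpos from GFRA1neg was -0.95 ± 0.47 and did not pass (adjusted p = 0.11), and without KITpos replicate 4 it was -1.89 and passed (adjusted p = 0.00016, the lowest of 18 alternatives, which reached 0.22). With all libraries kept it also passed by voom (-1.36, adjusted p = 0.025) and by voom with quality weights (-1.34, adjusted p = 0.036). GFRA1pos, at 8.70 to 12.9 CPM, rose over GFRA1neg by 1.90 ± 0.47 (adjusted p = 0.0094). P6gonocyte, at 2.16 to 4.58 CPM, fell relative to GFRA1pos by 1.49 ± 0.46 (adjusted p = 0.016, and 0.051 without P6gonocyte replicate 2, the highest of 17 alternatives, the lowest being 4.1e-05). An antisense gene overlaps an exon of Dusp5 in the GENCODE annotation, and whether counting used strand is not given in the sources used here.

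Sprouty proteins are membrane-associated inhibitors induced by receptor tyrosine kinases. Spry4 stood at 40.3, 23.8, 44.5 and 56.9 CPM in P6gonocyte and at 0.140, 2.78, 2.85, 0 and 0 CPM in KITpos. Its levels were 111, 143, 116 and 98.7 CPM in GFRA1pos and 8.75, 14.8, 8.67 and 14.0 CPM in GFRA1neg. No group overlapped another, and within KITpos the gene had 24 and 22 counts in replicates 2 and 3, against 1, 0 and 0 in replicates 1, 4 and 5. The log2 fold change was 3.33 ± 0.46 in GFRA1pos over GFRA1neg (adjusted p = 5.7e-05), -3.16 ± 0.53 in KITpos over GFRA1neg (adjusted p = 7.2e-05) and -1.50 ± 0.42 in P6gonocyte over GFRA1pos (adjusted p = 0.0092). Without KITpos replicate 2 the fall in KITpos was -3.76, and by DESeq2 the P6gonocyte difference did not pass (adjusted p = 0.09, the highest of 17 alternatives, the lowest being 5.4e-06).

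Spry1 had 10.1, 10.8, 6.31 and 7.83 CPM in P6gonocyte and 1.68, 3.25, 2.08, 1.36 and 0 CPM in KITpos. It had 20.2, 21.1, 22.5 and 15.2 CPM in GFRA1pos and 4.61, 4.24, 6.70 and 5.03 CPM in GFRA1neg. Every KITpos library lay under every GFRA1neg library (-1.56 ± 0.43, adjusted p = 0.0063). The rise in GFRA1pos over GFRA1neg was 1.94 ± 0.43 (adjusted p = 0.0041) and the fall in P6gonocyte relative to GFRA1pos was -1.17 ± 0.42 (adjusted p = 0.031). That fall did not pass when any of 6 libraries was left out (adjusted p = 0.050 to 0.094), which were P6gonocyte replicates 1, 3 and 4 and GFRA1pos replicates 1, 2 and 3. A gene on the opposite strand, Gm42922, overlaps an exon of Spry1 in the annotation.

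Spry2 did not follow the other Sprouty genes into the low levels of KITpos. It stood at 5.55, 3.85, 4.45 and 4.40 CPM in P6gonocyte and at 2.10, 4.64, 7.13, 6.48 and 2.43 CPM in KITpos. The GFRA1pos libraries held 22.2, 16.2, 21.3 and 16.2 CPM, against 3.58, 4.08, 2.31 and 3.75 CPM in GFRA1neg. GFRA1pos thus stood alone above the other groups, which overlapped one another. The rise in GFRA1pos over GFRA1neg was 2.46 ± 0.34 (adjusted p = 5.7e-05), and the fall in P6gonocyte relative to GFRA1pos was -2.06 ± 0.33 (adjusted p = 0.00017), the largest fall among the 10 genes in that comparison. KITpos differed from GFRA1neg by 0.41 ± 0.32 (adjusted p = 0.33, 95% interval -0.27 to 1.08).

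The Spred genes encode Sprouty-related proteins with an EVH1 domain, which with neurofibromin restrain RAS. Spred1 stood at 58.2, 43.3, 60.0 and 58.0 CPM in P6gonocyte and at 22.4, 25.6, 41.2, 40.4 and 49.2 CPM in KITpos. Its levels were 59.0, 65.3, 56.7 and 60.0 CPM in GFRA1pos and 27.3, 27.1, 28.8 and 31.2 CPM in GFRA1neg. P6gonocyte and GFRA1pos overlapped (-0.13 ± 0.19, adjusted p = 0.61, 95% interval -0.54 to 0.27), and KITpos spread from under to above the GFRA1neg range (0.32 ± 0.19, adjusted p = 0.17). The rise in GFRA1pos over GFRA1neg was 1.08 ± 0.19 (adjusted p = 0.00082). Without KITpos replicate 1 the difference of KITpos from GFRA1neg passed (0.45, adjusted p = 0.035, the lowest of 18 alternatives, which reached 0.48).

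Spred2 had 68.3, 51.7, 62.6 and 64.3 CPM in P6gonocyte and 17.4, 29.1, 28.7, 22.7 and 15.6 CPM in KITpos. It had 106, 75.6, 86.5 and 78.9 CPM in GFRA1pos and 36.1, 38.3, 41.0 and 46.4 CPM in GFRA1neg. The groups did not overlap. GFRA1pos rose over GFRA1neg by 1.10 ± 0.18 (adjusted p = 0.00034) and KITpos fell relative to GFRA1neg with -0.83 ± 0.17 (adjusted p = 0.00065). P6gonocyte differed from GFRA1pos by -0.49 ± 0.18 (adjusted p = 0.036), a call lost without any 1 of 5 libraries (P6gonocyte replicates 2, 3 and 4, GFRA1pos replicates 1 and 3; adjusted p = 0.062 to 0.12).

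Spred3 had the lowest level per kilobase of exon of the 10 genes in every group, with means of 0.399, 0.208, 0.652 and 0.341 CPM per kilobase in P6gonocyte, KITpos, GFRA1pos and GFRA1neg. It stood at 1.39, 1.44, 1.45 and 2.20 CPM in P6gonocyte and at 0.700, 0.812, 0.648, 1.36 and 0.693 CPM in KITpos. The levels were 1.42, 3.32, 3.72 and 2.11 CPM in GFRA1pos and 0.0941, 2.32, 1.04 and 2.07 CPM in GFRA1neg, where the counts were 1, 29, 9 and 21. The GFRA1pos and GFRA1neg libraries overlapped. Its single call was the fall in KITpos relative to GFRA1pos (-1.64 ± 0.57, adjusted p = 0.023), which was lost without GFRA1pos replicate 2 or 3 (adjusted p = 0.058 and 0.072, in a range of 0.013 to 0.076 over 18 alternatives). The germ cell gene Ggn lies on the opposite strand within the Spred3 locus and ranged from 0 to 0.694 CPM in P6gonocyte, 7.85 to 56.4 CPM in KITpos, 3.55 to 63.1 CPM in GFRA1pos and 14.9 to 91.1 CPM in GFRA1neg; its share of the Spred3 counts was not tested.

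Il17rd stood at 88.6, 63.9, 109 and 103 CPM in P6gonocyte and at 7.84, 9.97, 15.0, 10.4 and 6.41 CPM in KITpos. Its levels were 131, 146, 135 and 106 CPM in GFRA1pos and 80.9, 75.8, 76.4 and 91.4 CPM in GFRA1neg. All KITpos libraries lay far under the other groups (-3.02 ± 0.20 relative to GFRA1neg, adjusted p = 1.6e-09), and P6gonocyte overlapped both GFRA1pos and GFRA1neg. The rise in GFRA1pos over GFRA1neg was the smallest of the 9 called (0.67 ± 0.19, adjusted p = 0.025). It was lost without any 1 of GFRA1pos replicates 1, 2 and 3 or GFRA1neg replicates 1, 2 and 3 (adjusted p = 0.052 to 0.075). The fall in P6gonocyte relative to GFRA1pos was -0.51 ± 0.19 (adjusted p = 0.045), and it was lost without any 1 of P6gonocyte replicates 1, 2 and 4 or GFRA1pos replicates 1, 2 and 3 (adjusted p = 0.053 to 0.15).

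The remaining comparisons share libraries with those above, and their values are given side by side. KITpos was lower than GFRA1pos for all 10 genes, against 23.7% of all tested genes called lower and 24.9% called higher, with a median of -3.05 beside 0.07 over all tested genes. The falls reached 98.8-fold for Dusp6 (-6.63 ± 0.35, adjusted p = 5.2e-11) and 90.3-fold for Spry4 (-6.50 ± 0.53, adjusted p = 1.4e-08), and the smallest was 1.69-fold for Spred1. Low KITpos counts of Dusp6 and Spry4, at 0 in some libraries, make the sizes of their folds uncertain. By voom without quality weights the Spry4 value was -7.91. Without KITpos replicate 4 the difference for Dusp5 was -3.79 in place of -2.85, and without KITpos replicate 2 that for Spry4 was -7.09.

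P6gonocyte was higher than GFRA1neg for 5 of 10 genes, Dusp4, Dusp6, Spry4, Spred1 and Spred2, against 18.8% of all tested genes called higher and 24.9% called lower, with a median of 0.69 beside -0.09 over all tested genes. Dusp6 rose 5.50-fold and Spry4 3.56-fold. Il17rd, which separated KITpos from all other groups, differed by 0.17 ± 0.19 here (adjusted p = 0.51, 95% interval -0.24 to 0.58). P6gonocyte was higher than KITpos for 8 of 10 genes, against 21.8% of all tested genes called higher and 27.3% called lower, with a median of 1.62 beside -0.09. The rises were 43.8-fold for Dusp6, 31.9-fold for Spry4 and 9.11-fold for Il17rd. Those of Dusp6 and Spry4 rest on low KITpos counts, so their sizes are uncertain. Without KITpos replicate 2 the rise of Spry4 was 5.59 on the log2 scale in place of 4.99, and that of Dusp5 was 2.30 in place of 1.37 without KITpos replicate 4. The Dusp5 call was lost without any 1 of P6gonocyte replicates 1 and 3 or KITpos replicates 1, 2 and 3 (adjusted p = 0.052 to 0.061). Spry2 averaged 4.56 ± 0.715 CPM in P6gonocyte (n = 4) and 4.56 ± 2.29 CPM in KITpos (SD, n = 5), with a 95% interval of the log2 difference from -0.67 to 0.67.

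Per kilobase of exon, the summed level of the 10 genes was 68.5 ± 5.44 CPM per kilobase in P6gonocyte, 16.4 ± 3.77 in KITpos, 138 ± 10.5 in GFRA1pos and 32.7 ± 2.67 in GFRA1neg (SD, n = 4, 5, 4 and 4). The make-up of that sum differed along with its size. Dusp6 was the most abundant member in every P6gonocyte and GFRA1pos library, with mean shares of 28.3% in P6gonocyte, 2.34% in KITpos, 31.6% in GFRA1pos and 10.8% in GFRA1neg. Spred2 led in KITpos replicates 1, 2 and 3 and in all 4 GFRA1neg libraries, and Spred1 led in KITpos replicates 4 and 5. In KITpos, Spred1 and Spred2 held 33.1% and 31.1% of the sum and Spry2 held 12.6%, while Spry4 held 1.31%. Il17rd held 12.0% in P6gonocyte, 5.48% in KITpos, 8.55% in GFRA1pos and 22.7% in GFRA1neg.

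**Figure D3:**
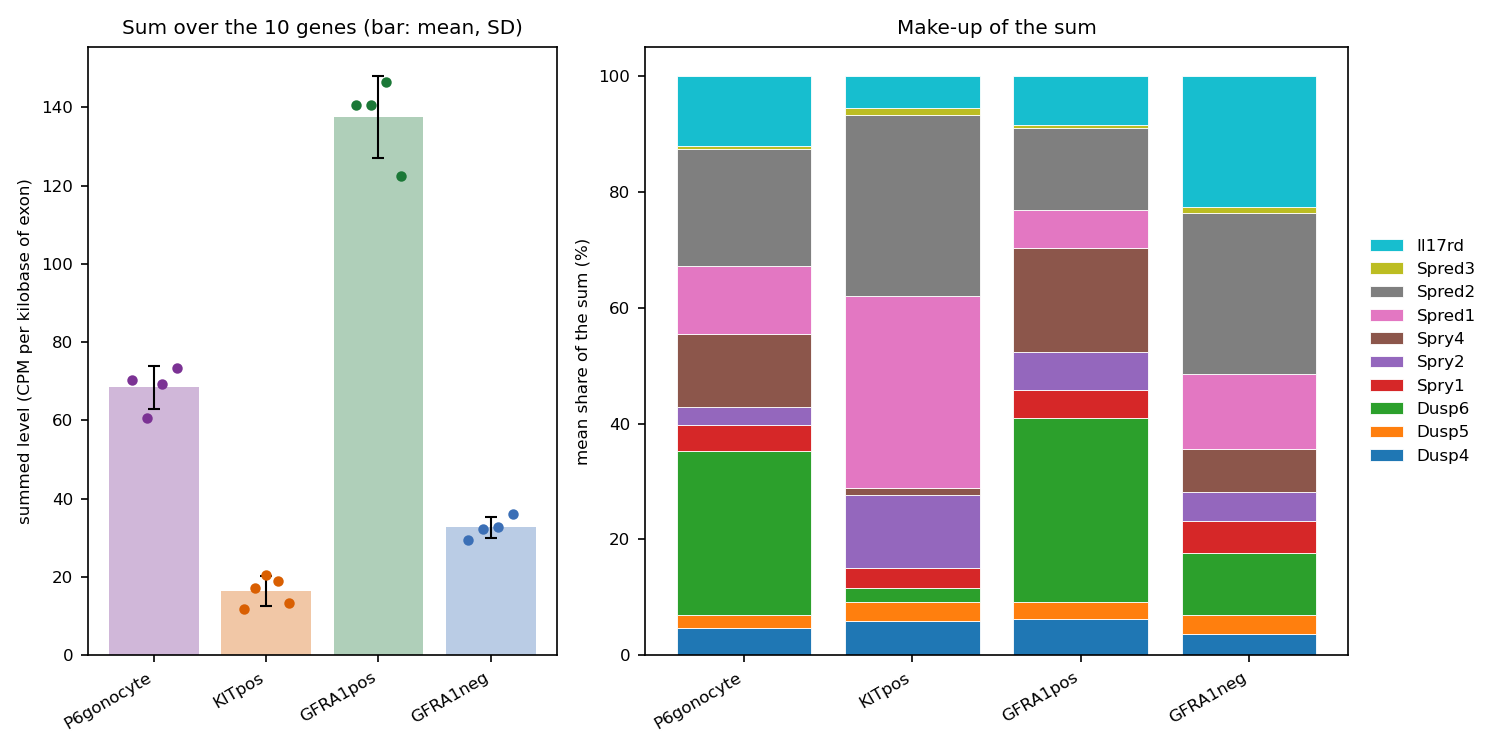
Left, summed CPM per kilobase of exon of the 10 genes in each library (points) with the group mean and SD (bar); right, mean share of that sum held by each gene, in percent, by group. Dusp6 and Spry4 fill much of the P6gonocyte and GFRA1pos bars, and Spred1 and Spred2 fill most of the KITpos bar.

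Ratios between members of a family within a library do not depend on scaling, and 6 of them were compared in the 3 comparisons with exact 2-sided permutation tests adjusted over the 18. None passed at an adjusted p under 0.05, while 8 of the 18 had an unadjusted p under 0.05. The smallest adjusted p was 0.0571. The smallest p possible is 0.0159 for 5 against 4 libraries and 0.0286 for 4 against 4. Adjustment over the 18 therefore left little room to pass, and the lack of calls does not show that the ratios were alike. For 5 of the 6 ratios KITpos and GFRA1neg gave the smallest p that 5 against 4 libraries allow (exact p = 0.0159). The log2 ratio of Spry4 to Spry2 averaged -3.30 ± 2.34 in KITpos and 1.72 ± 0.30 in GFRA1neg, and that of Spry1 to Spry2 averaged -1.92 ± 1.83 in KITpos and 0.59 ± 0.64 in GFRA1neg (SD, n = 5 and 4). The log2 ratio of Spred1 to Spred2 averaged 0.64 ± 0.68 in KITpos and -0.50 ± 0.07 in GFRA1neg. Those of Dusp4 and Dusp5 to Dusp6 were higher in KITpos than in GFRA1neg by 3.21 and 2.41. Their SDs were 1.515 and 2.287 in KITpos, against 0.535 and 0.260 in GFRA1neg. In KITpos replicates 1 to 5, Dusp6 had 6, 21, 14, 3 and 0 counts. Spry4 had 1, 24, 22, 0 and 0 counts there. The 0.5 added to each count therefore weighs on the ratios with these genes in KITpos. Between GFRA1pos and GFRA1neg, where the smallest possible p is 0.0286, the ratios of Dusp5 to Dusp6 (-1.77) and of Spry4 to Spry2 (0.90) reached it (exact p = 0.0286, adjusted p = 0.0643). So did the ratio of Spry1 to Spry2 between P6gonocyte and GFRA1pos (0.86, exact p = 0.0286, adjusted p = 0.0643).

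The other layers of the pathway were read from lists chosen by function, with earlier results of these data known. In GFRA1pos over GFRA1neg, the list closest to the feedback genes was that of ERK-responsive transcription factors and targets, where 12 of 17 tested genes (18 listed) rose and 0 fell, with a median of 2.21. The zinc finger factor Egr2 averaged 216 ± 22.3 CPM in GFRA1pos and 11.0 ± 1.93 CPM in GFRA1neg (4.30 ± 0.23, adjusted p = 1.2e-09). The ETS factor Etv5, a GDNF-regulated stem cell gene, averaged 423 ± 29.2 CPM in GFRA1pos and 33.3 ± 5.99 CPM in GFRA1neg (SD, n = 4 each); it also stands on the list of undifferentiated spermatogonia markers. The receptor kinase Epha2 rose by 4.02 ± 0.48 (adjusted p = 1.3e-05) and the cyclin Ccnd1 by 1.24 ± 0.12 (adjusted p = 9.8e-07).

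Upstream layers moved less evenly in that comparison, where 7.3% of all tested genes were called higher and 6.84% lower. Of 14 receptors and co-receptors 3 rose, namely the sort gene Gfra1, its signalling partner Ret (1.41 ± 0.23, adjusted p = 0.00028) and the neuregulin receptor Erbb3 (1.81 ± 0.23, adjusted p = 3e-05). The hepatocyte growth factor receptor Met fell by 0.73 ± 0.15 (adjusted p = 0.0023), and the sort gene Kit stood at -0.65 ± 0.27 (adjusted p = 0.12). Of 10 adaptors and RAS activators 2 rose (Shc1 and Grb2) and 2 fell (Gab2 and Frs3). Of 12 RAS, RAF, MEK and ERK genes 3 rose and 2 fell, with Mapk3 (ERK1) at -0.38 ± 0.12. Rras2 rose by 0.58 ± 0.17 and Braf stood at -0.78 ± 0.20. Of 8 other dual-specificity phosphatases 3 rose: Dusp7 (1.09 ± 0.17) and Dusp9 (1.36 ± 0.22), which like Dusp6 act on ERK in the cytoplasm, and the immediate-early gene Dusp1 (0.65 ± 0.21). Among 11 RAS GTPase-activating proteins and other brakes 0 rose and 1 fell, the ubiquitin ligase Cblb (-0.68 ± 0.16, adjusted p = 0.0074). Errfi1, Erf and Rasa3, named next by p in that list, and the phosphatase Dusp10 did not pass (adjusted p = 0.095, 0.19, 0.2 and 0.13).

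**Figure D4:**
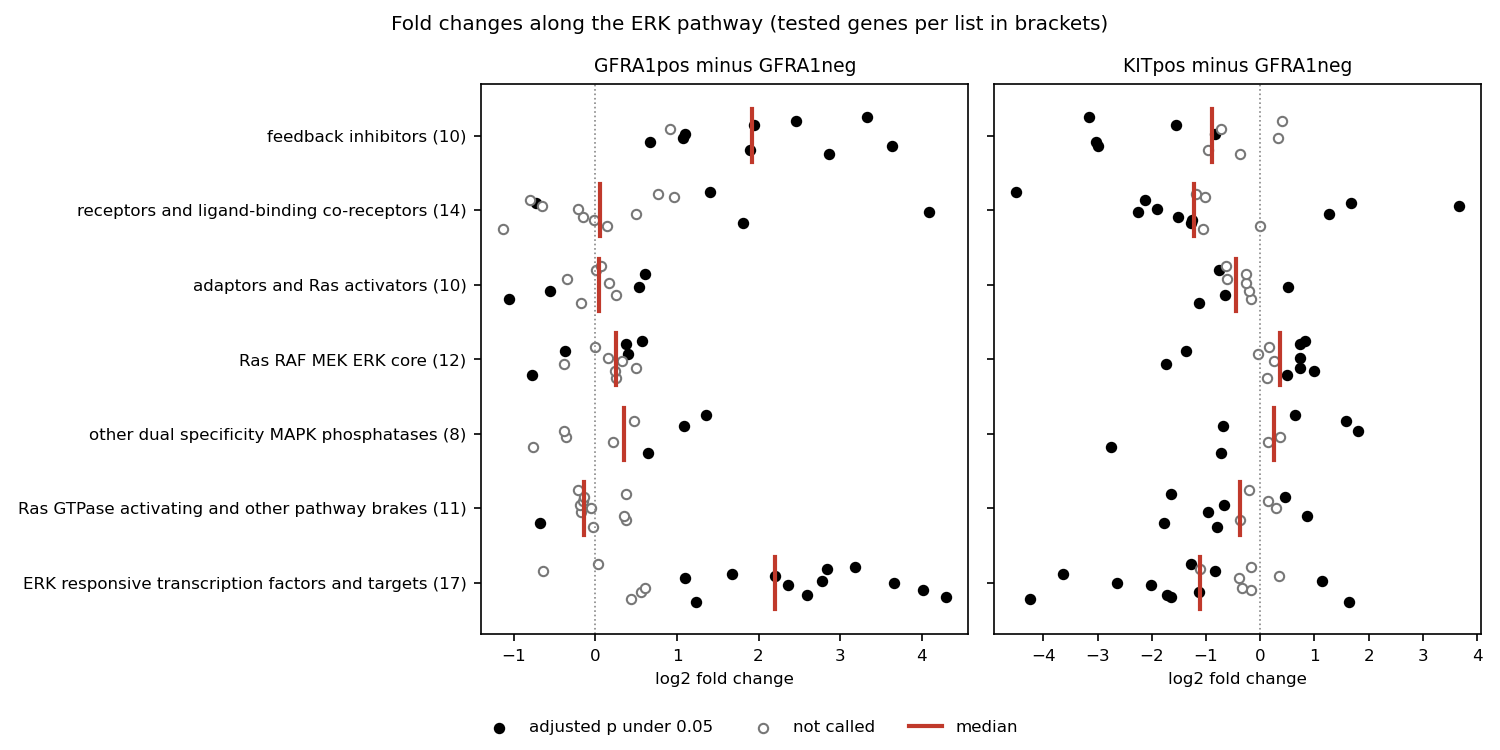
Log2 fold change of each tested gene by pathway layer in 2 comparisons; black points passed the edgeR test, open points did not, and the red line is the list median. In GFRA1pos minus GFRA1neg the medians of the feedback inhibitors (1.92) and of the ERK-responsive genes (2.21) lie apart from those of the other 5 layers, which lie between -0.14 and 0.35.

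In KITpos over GFRA1neg, 9 of 17 ERK-responsive genes fell and 2 rose, with a median of -1.11. Over all tested genes 23.0% were called lower and 22.1% higher there, so counts near these shares are not particular to a list. Etv5 fell to 5.16 ± 3.84 CPM in KITpos, against 33.3 ± 5.99 CPM in GFRA1neg (-2.64 ± 0.32, adjusted p = 2.1e-06), while Ccnd1 rose by 1.63 ± 0.12 (adjusted p = 3e-09). Ret stood at 6.42 ± 3.37 CPM in KITpos and at 148 ± 22.5 CPM in GFRA1neg (-4.51 ± 0.25, adjusted p = 1.2e-10). Receptors fell in 7 and rose in 3 of 14 cases, with the sort gene Kit and Met among those that rose. The RAS-RAF-MEK-ERK core rose in 6 and fell in 2 of 12 cases, Mapk3 being one that fell (-1.37 ± 0.12, adjusted p = 2.7e-08). Other dual-specificity phosphatases rose in 3 and fell in 3 of 8 cases, adaptors rose in 1 and fell in 3 of 10, and brakes rose in 2 and fell in 5 of 11. In P6gonocyte over GFRA1pos, 12 of 17 ERK-responsive genes fell and 1 rose, which was Ccnd1 (0.69 ± 0.12, adjusted p = 0.00021). The shares over all tested genes were 21.9% lower and 17.3% higher, and several counts of the other lists lay near them. Receptors fell in 5 and rose in 2 of 14 cases, adaptors fell in 2 of 10, the core rose in 1 and fell in 1 of 12, the other phosphatases rose in 1 and fell in 2 of 8, and the brakes rose in 2 and fell in 2 of 11.

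Across the 17 libraries, Pearson's r of log2(CPM + 1) between pairs of members ran from 0.47 (Spred1 with Il17rd) to 0.98 (Dusp6 with Spry4). These are descriptions over libraries that share 4 group means. Among all tested genes, Etv5 was the most alike to both Dusp6 and Spry4 (r = 0.99 each) and the third most alike to Spred2 (r = 0.98). For Dusp6 the next were Mapk12 and Mtus1, for Spry4 they were Lrp1 and Abr, and for Spred2 the closest were Sptbn1 and Parva. Il17rd was most alike to Ret (r = 0.99), followed by Dcaf12 and Amot.

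Because several members moved together and with an ETS factor, promoter windows were searched for the ETS core CGGAAG on both strands. Windows of 300 bases, from 250 before to 50 after the gene start, were found for 8 of the 10 genes (all but Dusp4 and Spry4) in RefSeq on GRCm38.p6. The core was in 3 of the 8 windows (37.5%), those of Dusp6, Spred1 and Spred2, against 16.9% of 32851 windows. It begins 62 bases before the start in Dusp6, 43 before it in Spred2 and 17 before it in Spred1, which holds a second match after the start. Dusp5 alone held the CArG box, the element bound by serum response factor, with adjacent matches 82 and 72 bases before the start, against 1.63% of all windows. The 4 windows are printed 5' to 3' on the gene's strand, with ETS cores in capitals in the first 3 and CArG boxes in capitals in Dusp5.
Dusp6 (chr10:99262981-99263280, plus strand): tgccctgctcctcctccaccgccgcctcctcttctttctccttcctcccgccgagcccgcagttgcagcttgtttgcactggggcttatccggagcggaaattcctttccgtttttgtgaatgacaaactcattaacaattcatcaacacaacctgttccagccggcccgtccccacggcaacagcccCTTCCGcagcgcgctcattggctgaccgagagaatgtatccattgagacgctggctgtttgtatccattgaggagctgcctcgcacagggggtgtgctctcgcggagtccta
Spred2 (chr11:19924192-19924491, plus strand): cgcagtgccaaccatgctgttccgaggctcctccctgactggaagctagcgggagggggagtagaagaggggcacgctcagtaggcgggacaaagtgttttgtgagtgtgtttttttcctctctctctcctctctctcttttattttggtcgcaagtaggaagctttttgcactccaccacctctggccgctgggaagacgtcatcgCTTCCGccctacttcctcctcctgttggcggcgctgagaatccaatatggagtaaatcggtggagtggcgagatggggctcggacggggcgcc
Spred1 (chr2:117120821-117121120, plus strand): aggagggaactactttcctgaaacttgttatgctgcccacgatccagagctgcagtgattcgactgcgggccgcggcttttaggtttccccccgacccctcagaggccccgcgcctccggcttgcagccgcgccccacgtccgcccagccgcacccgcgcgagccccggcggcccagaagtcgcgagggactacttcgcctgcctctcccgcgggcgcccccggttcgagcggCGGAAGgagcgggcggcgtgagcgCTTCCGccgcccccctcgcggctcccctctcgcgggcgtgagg
Dusp5 (chr19:53528895-53529194, plus strand): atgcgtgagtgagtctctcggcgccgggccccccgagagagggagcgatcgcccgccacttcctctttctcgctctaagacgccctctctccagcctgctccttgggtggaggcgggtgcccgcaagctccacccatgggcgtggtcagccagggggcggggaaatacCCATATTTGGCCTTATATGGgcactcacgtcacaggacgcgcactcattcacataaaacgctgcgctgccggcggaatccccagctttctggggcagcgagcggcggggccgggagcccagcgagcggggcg
The AP-1 element TGANTCA and the full cyclic AMP element TGACGTCA were in none of the 8 windows, against 7.81% and 1.79% of all windows. The shorter TGACG, which the full element contains, was in 2 (Dusp5 and Spred2), against 20.8% of all windows, and the GC box GGGCGG in 6, against 35.7%; in Spred2 the GC box overlaps the ETS core. The set of all windows was not matched for base composition to the 8, which held 55.0% to 72.3% G and C. A match describes letters in the window and does not show that a factor binds there.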

How the data were processed

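RNA sequencing gave gene counts for 17 libraries, grouped by their titles. The authors deposited whole-number counts per gene, not normalized; the submitters' processing notes list TopHat2 2.0.4 and Bowtie2 2.0.0-6, the mm9 build, DESeq and DESeq2, Trim Galore and Bowtie, with no roles. Neither the counting program nor its strand setting was given in the sources used here. GFRA1pos replicate 1 rests on a column whose name has GFP for GFR. The most abundant row had no symbol. It took 9.62% to 14.6% of a library's counts in P6gonocyte and 15.2% to 29.3% in KITpos. In GFRA1pos it took 23.3% to 29.8% and in GFRA1neg 23.8% to 29.9%. P6gonocyte thus lay under all adult libraries, and the part of this row in the P6gonocyte differences was not tested. The members and lists were chosen with earlier results of these data known.

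Tests used edgeR 4.0.16 (R 4.3.3): TMM scaling, filterByExpr by group, a quasi-likelihood F-test with 1 mean per group over all libraries, and Benjamini-Hochberg adjustment over 15451 genes. The SE is the log2 fold change divided by the root of F, and intervals are at 95%. Replicate libraries differed by a chi-square of 3.89 to 46.5 per degree of freedom over 28 pairs. Ratios used counts + 0.5 (SciPy 1.17.1). Exon lengths and overlaps came from GENCODE on GRCm38, used for these alone. All 10 members were described; of each other list, up to 4 genes with the smallest adjusted p in GFRA1pos minus GFRA1neg were named, plus sort genes, and the 3 most alike genes for the most expressed Dusp, Spry and Spred gene and Il17rd. One gene that this rule names is not reported here. Alternatives were RLE and upper-quartile scaling, other filters, DESeq2 1.42.0, limma 3.58.1 voom with and without quality weights, 2-group fits, a replicate block, a ratio pseudocount of 5 and leaving out each library. The procedure was tested on simulated data. Figures used matplotlib 3.10.9.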

Additional observations from a re-analysis of the deposited data

Results flagged for a closer look

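In 5 of 40 sets (each gene in each group), 1 library stood apart from the rest of its group by Dixon's 95% criterion, which chance meets in about 1 set in 20. Dusp4 was 12.99 CPM in P6gonocyte replicate 2, against 7.14 to 7.70 CPM in the other 3 libraries. In the same library Spred1 was 43.29 CPM, against 58.0 to 60.0 CPM, and Pou5f1 was also lowest there. In KITpos replicate 4, Dusp5 was 4.264 CPM, against 0.648 to 0.812 CPM in the other 4, and Spred3 was 1.364 CPM against the same range of values. Spred3 was 2.199 CPM in P6gonocyte replicate 4, against 1.39 to 1.45 CPM. Spred3 rested on 16 counts in that library and on 8 counts in KITpos replicate 4, and Dusp5 on 25 counts in KITpos replicate 4.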

How the results depend on the processing

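Under the alternatives that keep all libraries, 521 of 539 member fold changes kept their direction and their side of the threshold, 4 lost a call, 6 gained one and 8 changed sign. The sign changes were of values that did not pass in any of these fits: Spry2 in P6gonocyte minus KITpos was 0.034 with RLE scaling, 0.0007 with upper-quartile scaling, 0.0012 with a filter of 1 CPM, 0.031 by DESeq2, 0.12 and 0.097 by voom without and with quality weights, and 0.027 with only 2 groups, and Spred3 in KITpos minus GFRA1neg was 0.28 by voom with quality weights. The calls lost were Spry4 in P6gonocyte minus GFRA1pos by DESeq2, Spred3 in KITpos minus GFRA1pos by both voom fits and Dusp5 in P6gonocyte minus KITpos with only 2 groups (adjusted p = 0.064). Spred3 rose in GFRA1pos over GFRA1neg by voom with quality weights (1.87, adjusted p = 0.034, the lowest of 17 alternatives, which reached 0.56). The other calls gained were Dusp5 in KITpos minus GFRA1neg by both voom fits (-1.36 and -1.34) and Spry1 in P6gonocyte minus GFRA1neg by DESeq2 (0.78), with only 2 groups (0.81) and with the replicate block. Spry4 in KITpos was lower still by voom without quality weights (-4.57 relative to GFRA1neg and -7.91 relative to GFRA1pos). With quality weights voom called 3476 genes in GFRA1pos minus GFRA1neg in place of 2185. The cause was not tested.

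Leaving out 1 library at a time gave 8 to 9 members called in GFRA1pos minus GFRA1neg, 5 to 6 in KITpos minus GFRA1neg, 5 to 8 in P6gonocyte minus GFRA1pos, 9 to 10 in KITpos minus GFRA1pos, 5 in P6gonocyte minus GFRA1neg, and 7 to 8 in P6gonocyte minus KITpos. Signs changed within the range of these fits for Spry2 in P6gonocyte minus KITpos (-0.19 to 0.22) and Spred3 in P6gonocyte minus GFRA1neg (-0.17 to 0.59). The same held for the log2 ratio of Spred1 to Spred2 in GFRA1pos minus GFRA1neg (-0.12 to 0.091) and that of Spred3 to Spred2 in GFRA1pos minus GFRA1neg (-0.53 to 0.80), KITpos minus GFRA1neg (-0.074 to 1.25) and P6gonocyte minus GFRA1pos (-0.48 to 0.081). With a pseudocount of 5, the ratio of Spred3 to Spred2 was -0.19 in GFRA1pos minus GFRA1neg and 0.066 in P6gonocyte minus GFRA1pos. None of the 18 ratios passed in any alternative, where few libraries left little room to pass. In the replicate block with sign flips no ratio could pass, since 4 pairs allow no p under 0.125. Without a GFRA1neg library, too few libraries were left for any ratio to pass after adjustment over the 18. Counts of ERK-responsive genes called, an addition made after seeing the data, ran from 10 to 12 in GFRA1pos minus GFRA1neg, 9 to 11 in KITpos minus GFRA1neg and 10 to 13 in P6gonocyte minus GFRA1pos with 1 library left out, and reached 14, 11 and 14 in the other alternatives.

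The labels do not say that replicate numbers pair the libraries, and 5 of 24 same-numbered pairs correlated above 0.1 (range -0.42 to 0.49). Differently numbered pairs from different groups ranged more widely, from -0.61 to 0.53. Some of those also exceeded 0.1, such as KITpos replicate 1 with GFRA1pos replicate 2 (0.37). Of the 5 same-numbered pairs, 3 were between GFRA1pos and GFRA1neg (0.44, 0.49 and 0.29 for replicates 1, 2 and 3, and 0.065 for replicate 4). GFRA1pos replicates 1, 2 and 3 each correlated best with the same number in GFRA1neg, while replicate 4 correlated best with replicate 2 (0.53). This is at most a hint of pairing, from the data and not from the design. With the replicate number as a block, Spry1 passed in P6gonocyte minus GFRA1neg (0.76, adjusted p = 0.031, in a range of 0.02 to 0.28 over 17 alternatives) and no other member call changed; 2584 genes were called in GFRA1pos minus GFRA1neg. Low counts limit Dusp6, Spry1, Spry4, Dusp5 and Spred3 in KITpos, where 1 count was worth 0.116 to 0.173 CPM.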

Other observations

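Among the ERK-responsive genes, immediate-early members did not all follow the feedback inhibitors; Egr1 and Fos were chosen for mention after their values were seen. Egr1, a zinc finger factor, did not pass between GFRA1pos and GFRA1neg (0.44 ± 0.17, adjusted p = 0.093), although every GFRA1pos library lay above every GFRA1neg library. It fell 19.1-fold in KITpos relative to GFRA1neg (-4.25 ± 0.18, adjusted p = 3.3e-12). Fos, an AP-1 subunit, rose by 2.78 ± 0.34 in GFRA1pos over GFRA1neg (adjusted p = 2e-05) and also rose in KITpos over GFRA1neg by 1.14 ± 0.33 (adjusted p = 0.0085), where 5 of the feedback inhibitors fell. Its means were 3.23, 2.99, 9.34 and 1.35 CPM in P6gonocyte, KITpos, GFRA1pos and GFRA1neg.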
